A study of Mus musculus with 12 samples.

Results

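The 10 genes described here encode surface proteins with roles in muscle cell contact, in contact or ligand signals, or in cell fusion. They are the cadherins Cdh15, Cdh2, Cdh11 and Cdh13, the immunoglobulin adhesion molecule Ncam1, the receptors Cdon, Boc and Neo1, and tetraspanins Cd9 and Cd81. They were chosen by name, and every probe that the array files pair with one of these names was taken, which gave 28 of 41174 probes. Of these, 24 cleared the background limit in 1 group or more, with all 3 of its arrays well above background, and were tested, and each of the 10 genes kept at least 1 tested probe. The other 4 probes (2 of Boc, 1 of Neo1 and 1 of Cd9) did not reach that limit. Where a gene had several tested probes, the one with the highest mean intensity is called its lead probe.

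Skeletal muscle forms when single myoblasts leave the cell cycle, line up, adhere and fuse into myotubes with many nuclei. Classical cadherins bind like cadherins on the next cell and are tied to actin inside the cell through catenins. Cdon and Boc sit beside cadherins at these contacts and, with Neo1, pass contact and ligand signals to the muscle differentiation programme. Ncam1 makes a short form held by a lipid anchor and longer forms that cross the membrane. Tetraspanins gather integrins and immunoglobulin proteins into membrane patches, and Cd9 and Cd81 are known as regulators of cell fusion.

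RNA of 4 groups was hybridised to one-colour mouse arrays, with 3 arrays a group. The cultures were C2C12 cells, an established mouse myoblast line: dividing myoblasts taken at about 50% confluence in 10% fetal bovine serum, and myotubes taken 96 h after cells at 90% confluence were moved to 2% horse serum. Myotubes were lifted with trypsin and replated for 30 min, and the cells still floating were collected. This limits how far the group stands for the whole dish. The labels give this step for myotubes alone, so its effects and those of differentiation cannot be told apart. The tissues were the extensor digitorum longus (EDL), a fast muscle, and the soleus, a slow muscle, of male CD1 mice aged 3 months, with the muscles of both hind limbs of 1 mouse in each sample. The labels name no genetic change in any group. The labels do not say that cultures of a group were grown separately, so the p-values speak of the spread among these samples alone. The replicate number names the slide: 3 slides were used, each with 1 array from all 4 groups. Slide 1 was scanned on a different day from slides 2 and 3, so for slide 1 the effects of slide and scan day cannot be told apart. An array's place on its slide followed its group, and the effects of place and group cannot be told apart.

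Between 57.4% and 72.8% of probes were well above background on an array, with 61.2% to 70.8% in the cultures. EDL arrays held both the lowest and the highest share, and slide 1 had the lowest share in each group. The 75th percentile of intensity was 1018 to 1556 in the cultures and 457 to 614 in the muscles. Dim probes may be measured less firmly in the muscles for that reason. All 10 muscle differentiation markers rose from myoblasts to myotubes and all 6 markers of dividing cells fell. The muscles also held other cells: all 8 endothelium markers were higher in each muscle than in myotubes, with a summed signal of 37800 to 38400 in EDL, 40100 to 43900 in soleus and 110 to 216 in myotubes, and Pecam1, Cdh5 and Emcn were not well above background on any culture array. All 8 markers of fibroblasts and connective tissue and all 7 of Schwann cells were higher in both muscles than in myotubes as well. In RNA of whole samples, fewer cells of a type and less RNA per cell cannot be told apart, and the part of the other cell types in the differences between muscle and culture was not tested.

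Between myoblasts and myotubes, Ncam1 and Cdh13 rose more than 10-fold, Neo1 and Cd9 fell, and the lead probes of Cdh15, Cdh2, Cdh11, Cdon, Boc and Cd81 did not pass the limits of the test, which asked for an adjusted p under 0.05 and a difference of at least 1 on the log2 scale. That is 2 higher and 2 lower of 10 genes, beside 35.2% of all tested probes called in either direction (18.4% higher and 16.8% lower), so the share of called genes was near that of all probes. The median difference of the 10 lead probes was 0.11, and that of all tested probes was 0.02. The groups did not overlap for 9 of the 10 genes, beside 68.5% of all tested probes.

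In EDL against myotubes, 6 of the 10 genes were lower (Cdh15, Cdh2, Ncam1, Cdon, Cd9 and Cd81) and 1, Boc, was higher, beside 46.4% of all tested probes called (26.0% higher and 20.4% lower). In soleus, 5 were lower (the same genes without Cd9) and 0 were higher, beside 44.3% called (24.3% higher and 20% lower). The groups did not overlap for 10 of the 10 genes in either comparison, beside 74.5% (EDL) and 73.3% (soleus) of all tested probes. The median difference of the lead probes was -1.40 in EDL and -1.23 in soleus, and that of all tested probes was 0.14 and 0.09. Both comparisons share the myotube arrays. The choice of scale bears on these counts: with spike-in RNA in place of the 75th percentile the median of all probes moved to -0.81 (EDL) and -1.08 (soleus), and 8 genes were lower in each muscle and none higher, with Boc at 0.15 in EDL.

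**Figure D1:**
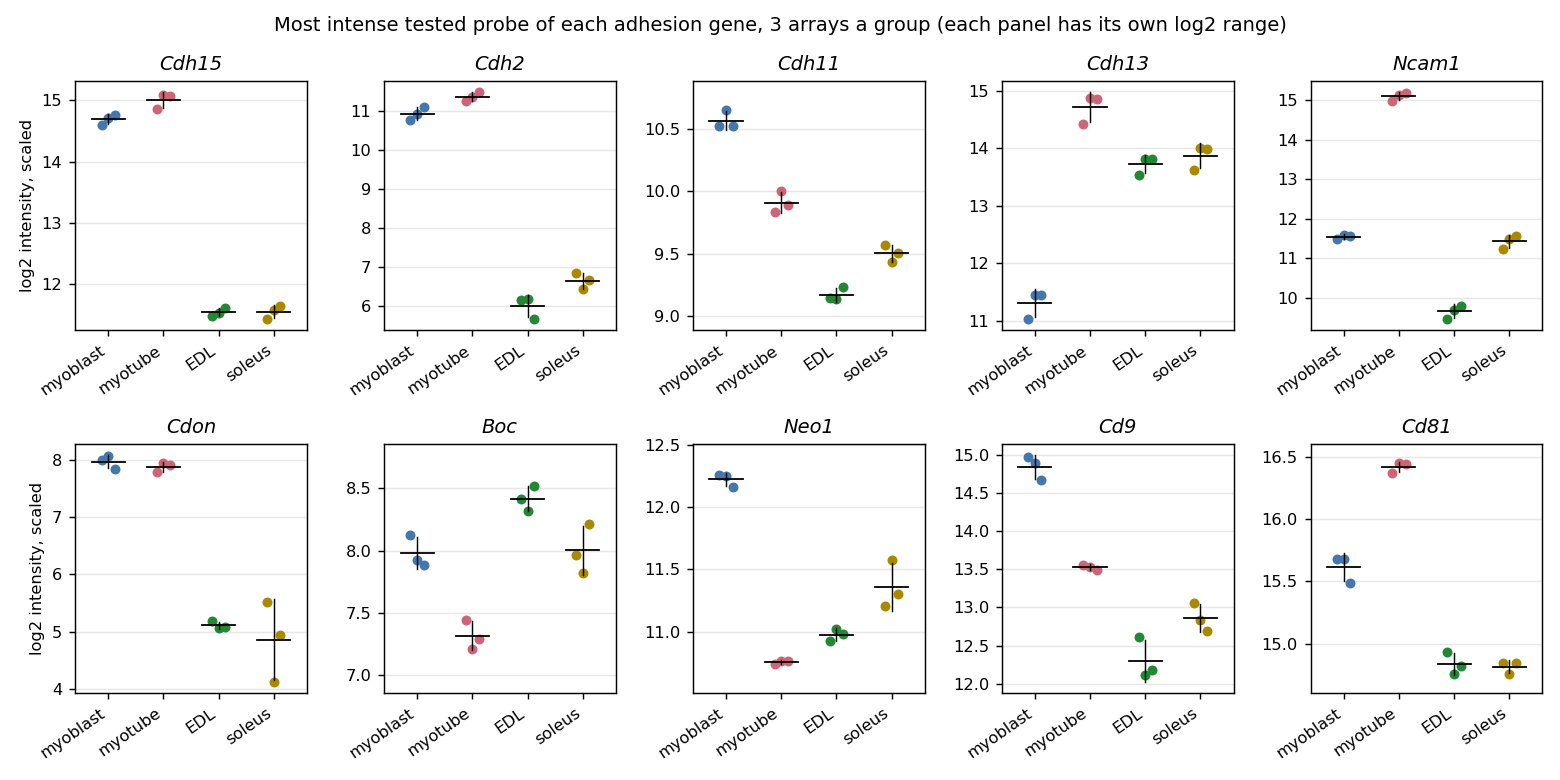
Log2 intensity, scaled to the 75th percentile of each array, of the lead probe of each gene in 3 arrays of each group (points in replicate order, bar: mean, vertical line: SD), with a separate log2 range in each panel. Cdh15 sits between 14.60 and 15.08 in the cultures and between 11.42 and 11.64 in the muscles, Cdh13 and Ncam1 are high in myotubes, and Neo1 and Boc are lowest there.

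**Figure D2:**
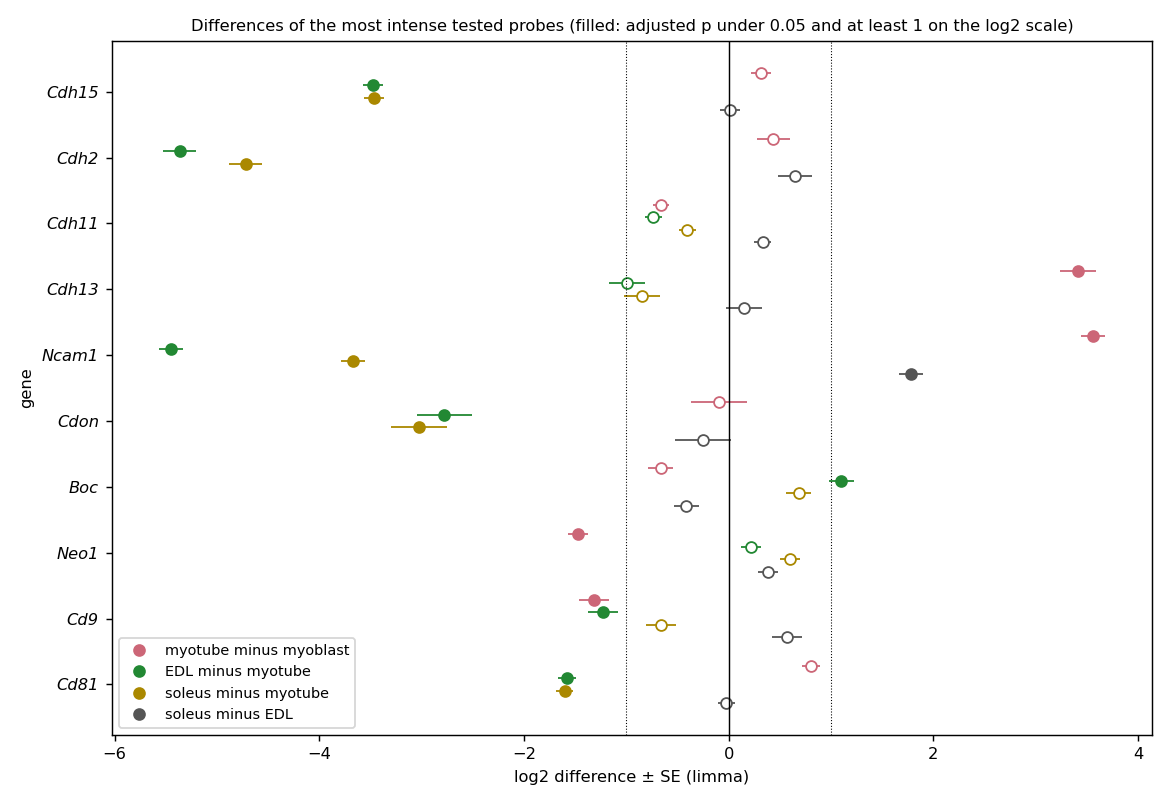
Log2 difference (x axis) with its standard error for the lead probe of each gene (y axis) in 4 comparisons; filled points passed the test. Ncam1 and Cdh13 lie above 3 in myotubes against myoblasts, and Cdh2 and Ncam1 lie below -5 in EDL against myotubes.

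Cdh15, Cdon, Cd9 and Cd81 are shown with the 250 bases before their start sites. They are 4 of the 6 genes that were lower in EDL than in myotubes. The windows of Cdh2 and Ncam1, which were also lower there, are not shown. The sequences are those of RefSeq on build GRCm38.p6 (Cdh15 chr8:122848124-122848373, + strand; Cdon chr9:35451826-35452075, + strand; Cd9 chr6:125494761-125495010, - strand; Cd81 chr7:143052500-143052749, + strand), read along the gene, with every E-box, the letters CANNTG that MyoD-family factors can bind, in capitals (the letters read the same way on the other strand, and a CAGCTG is also a CANNTG).
Cdh15: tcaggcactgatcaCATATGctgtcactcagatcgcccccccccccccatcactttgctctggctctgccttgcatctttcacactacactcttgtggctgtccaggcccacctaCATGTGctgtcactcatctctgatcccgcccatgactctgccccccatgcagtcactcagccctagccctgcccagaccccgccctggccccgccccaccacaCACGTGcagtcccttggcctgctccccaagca
Cdon: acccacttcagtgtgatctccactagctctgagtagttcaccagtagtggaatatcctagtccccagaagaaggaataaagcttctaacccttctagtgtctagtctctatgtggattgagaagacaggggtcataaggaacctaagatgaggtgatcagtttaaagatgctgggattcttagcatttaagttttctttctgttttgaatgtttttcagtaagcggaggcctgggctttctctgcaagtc
Cd9: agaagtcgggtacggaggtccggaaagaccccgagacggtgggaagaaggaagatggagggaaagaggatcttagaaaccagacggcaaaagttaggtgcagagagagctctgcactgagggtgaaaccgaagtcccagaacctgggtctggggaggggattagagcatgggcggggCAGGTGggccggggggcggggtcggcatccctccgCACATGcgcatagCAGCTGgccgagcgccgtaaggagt
Cd81: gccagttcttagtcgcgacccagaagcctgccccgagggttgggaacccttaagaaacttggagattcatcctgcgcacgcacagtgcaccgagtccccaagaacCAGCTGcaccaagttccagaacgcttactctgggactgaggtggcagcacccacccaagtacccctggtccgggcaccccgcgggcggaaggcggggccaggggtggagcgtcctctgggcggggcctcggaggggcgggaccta
The Cdh15 window held 3 E-boxes, the farthest at 236 bases before the start, and 0 of the form CAGCTG. The Cd9 window held 3, of which 1 was CAGCTG, the Cd81 window held 1, a CAGCTG, and the Cdon window held 0. Of all 32851 RefSeq windows of this length, 66.2% held at least 1 CANNTG and 13.0% held a CAGCTG. A match is a description of these letters and not a measured site.

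Cdh15, the M-cadherin of myoblasts and satellite cells, was high in both cultures and lower, though well above background on every array, in both muscles. Its single probe (chr8:125753221-125753280, build mm8, + strand) read 14.60, 14.71 and 14.76 in the 3 myoblast samples and 14.86, 15.08 and 15.07 in myotubes. It read 11.47, 11.52 and 11.61 in EDL and 11.42, 11.57 and 11.64 in soleus. The cultures lay above the muscles without overlap, and the muscles overlapped with each other. The level in EDL was 11.1-fold below that in myotubes (log2 difference -3.47, SE 0.10, adjusted p = 3.67e-10), and soleus differed from myotubes by -3.46 (SE 0.10). Myotubes exceeded myoblasts by 0.32 (SE 0.10, adjusted p = 0.0153), below the size limit, and with spike-in scaling that difference was -0.04.

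Cdh2, the N-cadherin shared by muscle and nerve, followed the same order with a wider gap. Its lead probe read 10.76, 10.92 and 11.09 in myoblasts, 11.24, 11.36 and 11.47 in myotubes, 6.15, 6.17 and 5.67 in EDL and 6.84, 6.42 and 6.66 in soleus. No group overlapped with another, and EDL was the lowest. EDL lay 41.2-fold below myotubes (-5.37, SE 0.16, adjusted p = 6.68e-10) and soleus 26.3-fold below (-4.72, SE 0.16). Soleus exceeded EDL by 0.65 (SE 0.16, adjusted p = 0.0127), below the size limit. The other 2 probes of Cdh2 were dim in the cultures, with means of 4.02 to 4.54, and were not well above background on any muscle array, so they give at most a bound there: A_52_P322725 was at least 1.05-fold higher in myotubes than in EDL and at least 1.17-fold higher than in soleus.

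Cdh11, a cadherin also known in connective tissue and bone, did not give the same answer at all of its probes under the main scaling. The lead probe, A_52_P683146 (chr8:105557135-105557194, mm8, minus strand), lies nearest the 5′ end of the 3, and read 10.52, 10.65 and 10.52 in myoblasts, 9.83, 10.00 and 9.89 in myotubes, 9.14, 9.13 and 9.23 in EDL and 9.57, 9.43 and 9.50 in soleus. Myoblasts were the highest group at this probe and no groups overlapped, but the difference of myotubes from them (-0.66, SE 0.08, adjusted p = 4.36e-05) was below the size limit. The probes nearer the 3′ end put myotubes on top: A_52_P437795 (chr8:105522702-105522761) read 6.91, 7.04 and 6.89 in myoblasts and 7.70, 7.94 and 7.62 in myotubes, a difference of 0.81 (SE 0.14, adjusted p = 0.000517), and A_51_P506204 (chr8:105523125-105523184) differed by 0.76 (SE 0.21). These 2 probes were lower in muscle than in myotubes, with differences of -2.20 and -1.62 in EDL and -2.12 and -1.51 in soleus, all called, while the lead probe was not called there (-0.74 and -0.41). A test of each probe against the other probes of its gene (limma's diffSplice) gave an adjusted p of 3.16e-06 for Cdh11 in myotubes against myoblasts, where 29.3% of 6618 genes with several tested probes passed. With a normexp background correction on raw signals, that adjusted p was 1 and the 3′ probes differed by -0.09 and -0.16.

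Cdh13, the T-cadherin, has a lipid anchor and no part inside the cell. It rose from myoblasts to myotubes, and at its lead probe it stayed high in muscle. Its lead probe (chr8:122200046-122200105, mm8, + strand) read 11.03, 11.45 and 11.44 in myoblasts and 14.43, 14.87 and 14.86 in myotubes. EDL read 13.54, 13.82 and 13.82, and soleus 13.63, 14.01 and 13.98. Replicate 1 was the lowest array in every group, and the gap between myoblasts and the other groups was larger than that spread. The rise into myotubes was 10.7-fold (3.41, SE 0.17, adjusted p = 4.98e-08), and within the 3 slides it was 3.40, 3.42 and 3.42. EDL lay 0.99 (SE 0.17, adjusted p = 0.000439) below myotubes, just short of the size limit. It was called in 4 of the 9 fits that left out arrays, at -1.04 to -1.14, and with quantile normalization (-1.21), the authors' values (-1.13) and spike-in scaling (-1.94). EDL and soleus were 5.35-fold and 5.92-fold above myoblasts, and with spike-in scaling the log2 differences of 1.11 and 1.03 were not called. The second probe, A_52_P504883 (chr8:121738151-121738210), which lies toward the 5′ end, rose less, by 1.24 (SE 0.33, adjusted p = 0.00761), and diffSplice gave an adjusted p of 0.000194 for the difference between the probes. That smaller rise was not called without replicate 1 (0.82) or replicate 3 (1.29), with quantile normalization (0.94), the authors' values (0.94) or spike-in scaling (0.88). With normexp it turned to -0.46. At this second probe EDL differed from myotubes by -1.41 (SE 0.33, adjusted p = 0.00304, called), with 2 of 3 EDL arrays well above background. EDL differed from myoblasts there by -0.17 and soleus from myotubes by -0.07, neither called.

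Of 9 tested genes for cytoplasmic partners of cadherins, 3 were called higher and 0 lower in myotubes than in myoblasts. That stands beside 18.4% and 16.8% of all tested probes, and the median difference of the 9 genes was 0.25. With spike-in scaling 1 was higher and 1 lower (median -0.11), and with normexp 1 was higher and 0 lower. Of the 3, Ctnna3 did not clear background on an array of either group. Jup, or plakoglobin, rose by 1.92 (SE 0.29) and Arvcf, a catenin of the p120 family, by 1.02 (SE 0.13), a call that was lost with spike-in scaling (0.66), with normexp (0.93) and without replicate 3 (0.93). In EDL against myotubes, 4 were lower and 1 higher, beside 20.4% and 26.0% of all tested probes: Ctnna1, the alpha-catenin that links cadherins to actin, was lower by 2.23 (SE 0.12), and Ctnna3, an alpha-catenin of heart and muscle, was at least 3.56-fold higher, which was not called with normexp (0.95). Other classical cadherins were mostly dim, and 4 of 9 were tested. Cdh1, the E-cadherin of epithelia, rose by 4.18 (SE 0.16) from myoblasts, where 2 of 3 arrays were well above background, and Cdh10 fell by 1.60 (SE 0.53), with 1 of 3 myotube arrays above background. Neither was called with normexp (0.38 and -1.45), and Cdh10 was not called without replicate 1 (-1.44) or 3 (-1.74). Cdh5, the cadherin of endothelium, was at least 418-fold higher in EDL than in myotubes, and Cdh4, the R-cadherin, at least 164-fold higher. Neither was well above background on any culture array, and Cdh5 is itself among the 8 endothelium markers.

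Ncam1 rose into myotubes at 4 of its 8 probes and was lower in both adult muscles than in myotubes at 7 of the 8. The lead probe, A_52_P382754 (chr9:49269730-49269789, mm8, minus strand), which the files pair with transcript variant 2 only, read 11.47, 11.59 and 11.56 in myoblasts and 14.99, 15.14 and 15.18 in myotubes. It read 9.46, 9.70 and 9.80 in EDL and 11.24, 11.50 and 11.56 in soleus. Myotubes stood alone at the top and EDL alone at the bottom, while soleus and myoblasts overlapped. The rise into myotubes was 11.8-fold (3.56, SE 0.12, adjusted p = 1.95e-09). EDL was 43.7-fold below myotubes (-5.45, SE 0.12, adjusted p = 6.98e-11) and soleus 12.7-fold below (-3.67, SE 0.12).

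The rise into myotubes differed between probes paired with different transcripts. The probes of variant 1 alone lie nearest the 3′ end, so effects of transcript and of position along the gene cannot be told apart. Both probes listed for variants 1 and 2 together, which lie upstream, rose with the lead probe: A_52_P684037 by 3.09 (SE 0.26) and A_52_P291924, which has 10 spots on each array, by 2.98 (SE 0.28). A_52_P37077, listed for an mRNA that holds the alternative exon pi and with no coordinate in the files, rose by 2.90 (SE 0.18), although with the normexp correction it differed by 0.92 and was not called. The probes listed for variant 1 alone, at the 3′ end, did not rise. A_51_P380309 (chr9:49254445-49254504) read 13.19, 13.14 and 12.99 in myoblasts and 13.40, 13.27 and 13.34 in myotubes, a difference of 0.23 (SE 0.08) that was -0.13 with spike-in scaling, and A_52_P613255 (chr9:49257349-49257408) read 11.10, 11.32 and 11.32 and then 10.71, 10.64 and 10.81, a difference of -0.53 (SE 0.11, adjusted p = 0.00152). The ranges of the groups did not touch at either probe, and both differences were below the size limit. The most 5′ probe, A_52_P668157, listed for an embryo cDNA, differed by 0.91 (SE 0.25), below the size limit.

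The test of probes against the other probes of the gene bore on these differences between probes. In myotubes against myoblasts the lead probe rose by 2.16 more than the mean of the other 7 (adjusted p = 1.35e-09), while the same contrast was -2.51 for A_52_P613255 (adjusted p = 1.34e-11) and -1.65 for A_51_P380309 (adjusted p = 1.11e-06). For the gene as a whole the adjusted p was 3.84e-19, and it was 0.00012 with the normexp correction and 3.65e-20 with the replicate block. The test was chosen after these values had been seen, takes probes of a gene as independent and lends them a shared variance. In soleus against EDL, where 11% of genes passed, it gave 0.00142 for Ncam1, but 0.21 without replicate 2, 0.211 without replicate 3 and 1 with normexp.

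**Figure D3:**
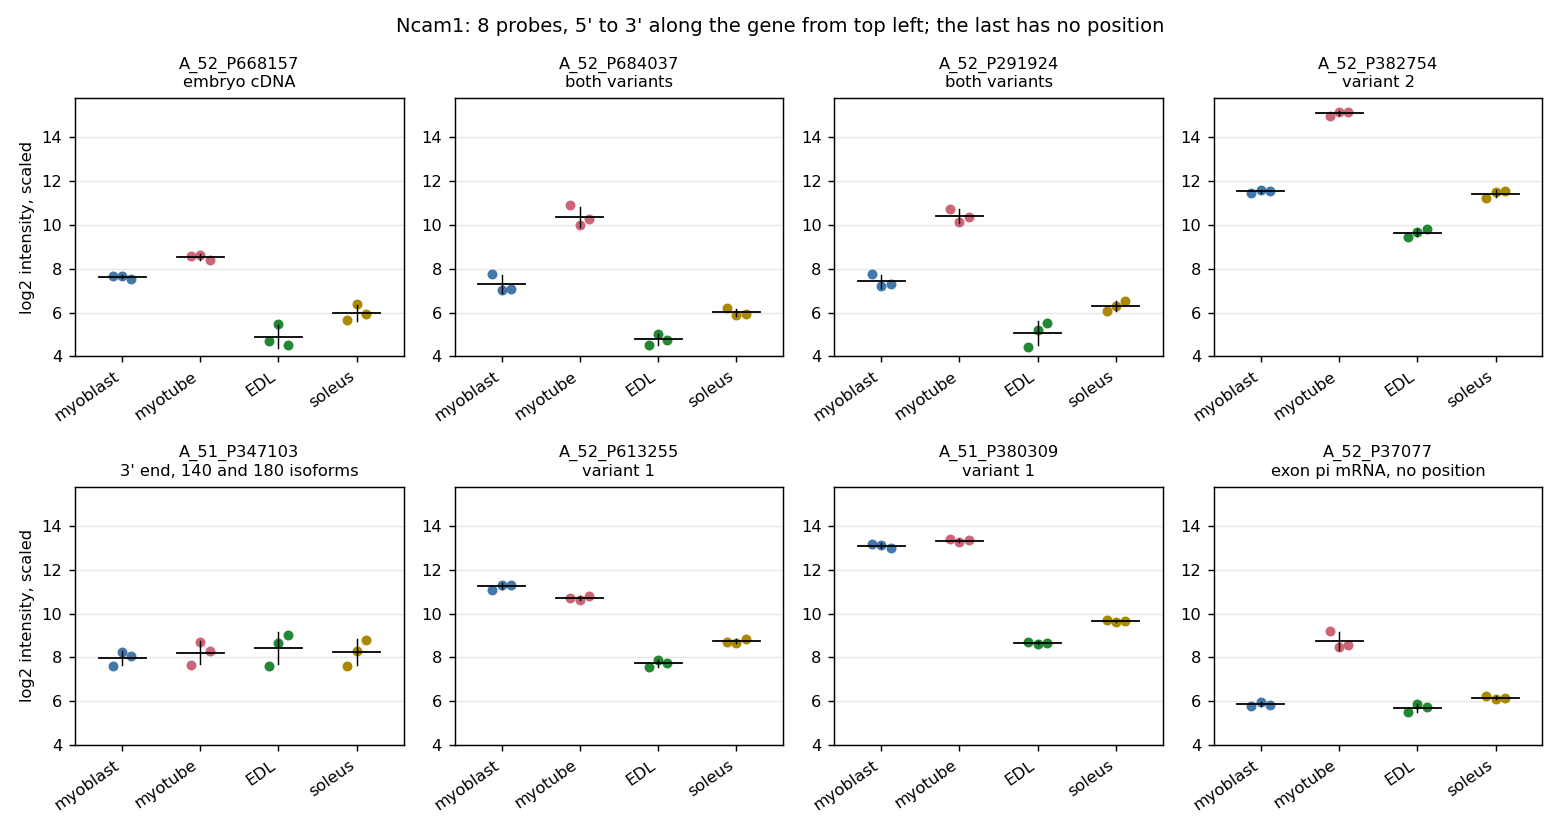
Log2 intensity, scaled to the 75th percentile of each array, of the 8 probes of Ncam1 in 3 arrays of each group (bar: mean, vertical line: SD), ordered along the gene from the 5′ end, with the probe of no coordinate last. The probes for both variants and for variant 2 are 2.98 to 3.56 higher in myotubes than in myoblasts, and those for variant 1 differ by -0.53 and 0.23.

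The probes also differed from each other in adult muscle against myotubes, with an adjusted p from diffSplice of 7.62e-23 in EDL (1.98e-07 with normexp) and 1.47e-16 in soleus (1.53e-05 with normexp), where 47.1% and 45.6% of genes passed. The variant 1 probes were lower in EDL than in myotubes (A_51_P380309 at -4.67 and A_52_P613255 8.0-fold) and in soleus (-3.68 and -1.99), all called, and 7 of the 8 probes were lower in each muscle. The exception was A_51_P347103 (chr9:49259540-49259599), listed for the 3′ end of the 140 and 180 isoforms, which read 7.60, 8.26 and 8.05 in myoblasts, 7.65, 8.70 and 8.28 in myotubes, 7.62, 8.68 and 9.03 in EDL and 7.63, 8.31 and 8.81 in soleus. All 4 groups overlapped there, and the array of slide 1 was the lowest in each group. Its differences were 0.24 (myotube against myoblast), 0.23 (EDL against myotube) and 0.04 (soleus against myotube), each with SE 0.42. Schwann cells and satellite cells of the muscles also make Ncam1, and their markers were present there: the summed Schwann cell signal was 5240 to 5540 in EDL, 10800 to 11400 in soleus and 283 to 401 in myotubes. Markers of myoblasts and satellite cells summed to 2430 to 2680 in EDL, 2520 to 2950 in soleus and 4240 to 4810 in myotubes. Of these 6 markers, 3 were called higher and 2 lower in EDL than in myotubes, and 4 higher and 2 lower in soleus. Chrdl2 and Calcr, among the 6, were not well above background on any culture array. The part of Schwann cells and satellite cells was not tested.

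Of 9 tested relatives and partners of Ncam1, 3 rose and 2 fell into myotubes, beside 18.4% and 16.8% of all tested probes, with a median of 0.77. With spike-in scaling 3 were higher and 3 lower (median 0.42), and with normexp 1 was higher and 1 lower (median -0.75). Fyn, a kinase that acts under Ncam1, rose by 2.04 (SE 0.10) and was 4.54 (SE 0.10) lower in EDL than in myotubes. Nrcam, an adhesion molecule of the L1 family, rose by 2.02 (SE 0.26; -0.22 with normexp), and L1cam fell by 1.83 (SE 0.25), a call lost with normexp (-1.69) and with the authors' values (-1.87). Gap43, a growth cone protein that takes part in Ncam1 signalling, was at least 25.7-fold higher in myoblasts, and Chl1, another L1 relative, was at least 19.4-fold higher in EDL than in myotubes, which was not called with normexp (2.18).

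Cdon, the receptor at cadherin contacts that promotes differentiation, did not pass the test between myoblasts and myotubes and was low in adult muscle. Its single probe (chr9:35253948-35254008, mm8, + strand) read 8.00, 8.08 and 7.85 in myoblasts and 7.79, 7.95 and 7.92 in myotubes, which overlap, with a difference of -0.09 (SE 0.27, adjusted p = 0.795). EDL read 5.18, 5.06 and 5.09, and soleus 5.52, 4.12 and 4.93, of which 2 were well above background. EDL lay 6.86-fold below myotubes (-2.78, SE 0.27, adjusted p = 5.47e-06) and soleus 8.16-fold below (-3.03, SE 0.27). With the normexp correction these were -1.17 and -0.48 and were not called.

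Boc, its close relative, which also binds Hedgehog ligands, went the other way. The lead probe (A_52_P319495, chr16:44405064-44405123, mm8, minus strand) read 8.13, 7.93 and 7.88 in myoblasts, 7.44, 7.21 and 7.29 in myotubes, 8.41, 8.31 and 8.52 in EDL and 7.97, 7.82 and 8.22 in soleus. Myotubes were the lowest group, apart from all the others, and soleus overlapped with myoblasts. EDL was 2.14-fold above myotubes (SE 0.12 on the log2 scale, adjusted p = 1.4e-05), and this was the only call for Boc. It was not called with quantile normalization (0.96), the authors' values (0.96), normexp (0.91) or spike-in scaling (0.15). The difference between myotubes and myoblasts was -0.66 (SE 0.12, adjusted p = 0.000745), below the size limit. Of the other Boc probes, A_51_P162636 was well above background on 2 myotube arrays and on none of any other group, and A_52_P623296 on none of the 12.

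Neo1, the receptor of netrins and repulsive guidance molecules, fell from myoblasts to myotubes at each of its 3 tested probes. The lead probe, A_51_P476728, read 12.26, 12.25 and 12.16 in myoblasts, 10.74, 10.76 and 10.77 in myotubes, 10.92, 11.03 and 10.98 in EDL and 11.20, 11.57 and 11.30 in soleus. No groups overlapped, with myotubes the lowest. The fall into myotubes was 2.77-fold (-1.47, SE 0.10, adjusted p = 3.95e-07), and the probes upstream gave -1.40 (A_52_P269003, SE 0.26) and -1.67 (A_52_P907073, SE 0.12). Dividing-cell markers fell over the same step, from a summed signal of 62300 to 70700 down to 1140 to 1320, and their part was not tested.

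The Neo1 probes parted company in adult muscle. In EDL against myotubes the lead probe differed by 0.22 (SE 0.10, not called), A_52_P907073 by 1.31 (SE 0.12, called) and A_52_P269003 by 1.99 (SE 0.26, called). The diffSplice test gave an adjusted p of 8.47e-06 for Neo1 in this comparison, where 47.1% of genes passed, and 0.038 with normexp. In soleus against myotubes it gave 0.00536, where 45.6% of genes passed, 0.296 with normexp, 0.0686 without replicate 2 and 0.165 without replicate 3. In soleus against myotubes the same probes differed by 0.60, 0.70 and 1.55, and A_52_P269003 was called. With spike-in scaling the soleus values became -0.57, -0.47 and 0.38, and the lead probe in EDL became -0.73, so the sign turned at the lead probe in both muscles and at A_52_P907073 in soleus. The remaining probe, A_52_P253025, was well above background on 2 myoblast arrays and 1 soleus array.

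**Figure D4:**
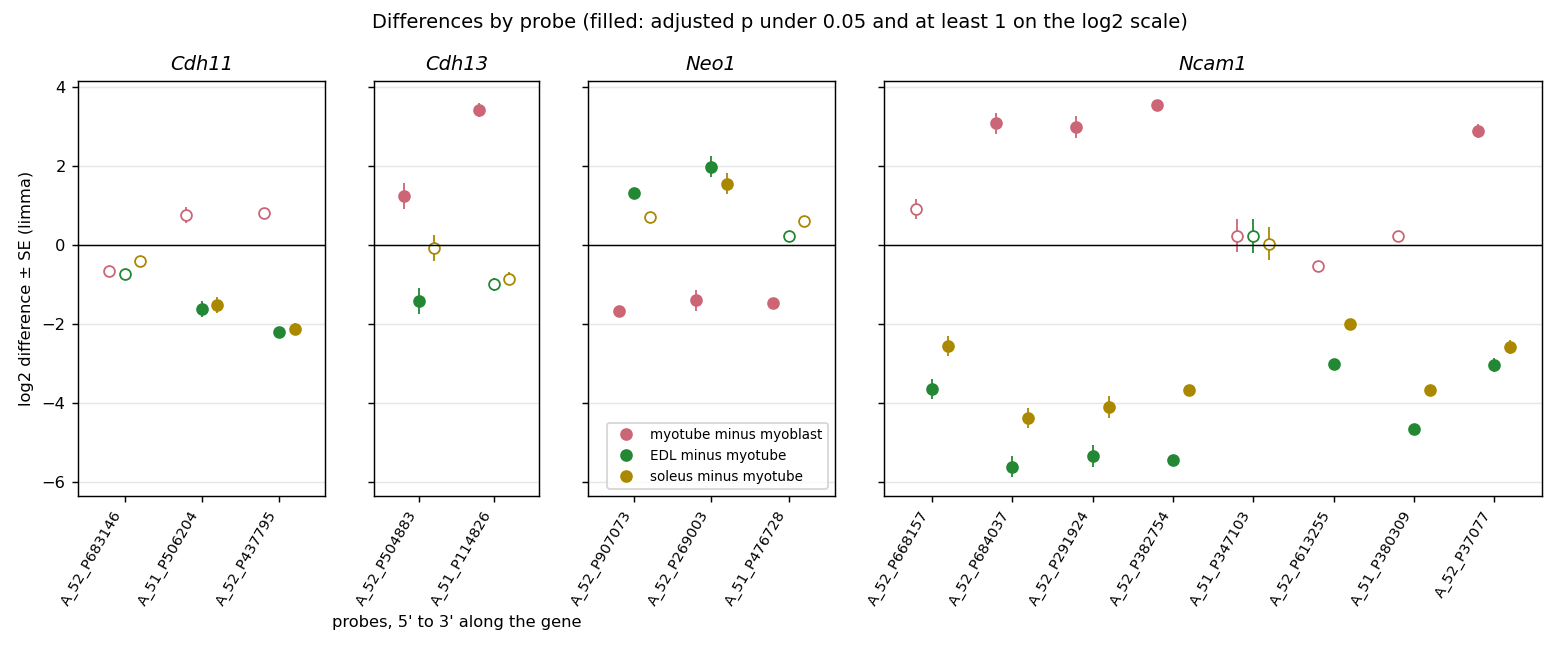
Log2 difference with its standard error (y axis) for each tested probe of Cdh11, Cdh13, Neo1 and Ncam1 (x axis, 5′ to 3′ within a gene, the Ncam1 probe of no coordinate last) in 3 comparisons; filled points passed the test. The 3 probes of Neo1 lie together below -1 in myotubes against myoblasts, whereas those of Ncam1 range from -0.53 to 3.56.

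Of 17 tested ligands, co-receptors and effectors of Cdon, Boc and Neo1, 4 rose and 4 fell into myotubes, beside 18.4% and 16.8% of all tested probes, with a median of -0.40. With spike-in scaling 4 were higher and 7 lower (median -0.76). Hjv, a repulsive guidance molecule of muscle that binds Neo1, rose by 6.61 (SE 0.15), and Ntn4, a netrin, rose by 3.06 (SE 0.23), a call lost with normexp (0.59). Gas1, a Hedgehog co-receptor beside Cdon and Boc, fell by 3.03 (SE 0.20), and Hhip, which binds and holds back Hedgehog ligands, was at least 56.1-fold higher in myoblasts. In EDL against myotubes 6 were higher and 3 lower, beside 26.0% and 20.4% of all tested probes (2 and 5 with spike-in scaling). Dhh, a Hedgehog ligand that Schwann cells make, was 5.00 (SE 0.15) higher there, beside the Schwann cell signal given above, and Unc5b, another netrin receptor, was lower, at -3.32 (SE 0.25).

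Cd9 fell from myoblasts to myotubes and was lower again in adult muscle. Its lead probe, A_51_P320852 (chr6:125425988-125426047, mm8, minus strand), read 14.97, 14.89 and 14.67 in myoblasts, 13.56, 13.53 and 13.48 in myotubes, 12.61, 12.11 and 12.18 in EDL and 13.06, 12.84 and 12.70 in soleus. The groups stood in that order without overlap, except that soleus lay between myotubes and EDL. Myotubes were 2.49-fold below myoblasts (-1.31, SE 0.15, adjusted p = 2.16e-05), and EDL 2.34-fold below myotubes (-1.23, SE 0.15, adjusted p = 2.74e-05). Soleus lay 0.66 (SE 0.15) below myotubes, not called. A second probe paired with Cd9, A_51_P323341, is placed on the other strand and cleared background on 0 of 12 arrays.

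Cd81, the other tetraspanin, did not follow Cd9. Its single probe (chr7:142877222-142877281, mm8, + strand) read 15.68, 15.68 and 15.49 in myoblasts, 16.37, 16.45 and 16.44 in myotubes, 14.94, 14.76 and 14.82 in EDL and 14.85, 14.76 and 14.84 in soleus. Myotubes were the highest group and the muscles overlapped at the bottom. Myotubes exceeded myoblasts by 0.80 (SE 0.08, adjusted p = 1.33e-05), below the size limit. EDL and soleus lay 2.99-fold and 3.04-fold below myotubes (-1.58 and -1.60, SE 0.08, adjusted p = 4.76e-08 and 4.56e-08).

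Of 13 other tetraspanins and their partners tested, 2 rose and 3 fell into myotubes, beside 18.4% and 16.8% of all tested probes, and with normexp 1 was higher and 1 lower. In EDL against myotubes 1 was higher and 9 were lower, beside 26.0% and 20.4% of all tested probes. The median in EDL was -1.60. In soleus 0 were higher and 9 were lower, beside 24.3% and 20% of all tested probes. With spike-in scaling 10 were lower in EDL and 11 in soleus, and with normexp 8 and 7. Tspan8 rose by 4.18 (SE 0.18) into myotubes (0.87 and not called with normexp) and was 4.08 (SE 0.18) higher again in EDL. Itga7, the laminin-binding integrin chain of muscle, rose by 1.84 (SE 0.07) into myotubes and was -3.84 (SE 0.07) in EDL against them. Tspan4 fell by 1.91 (SE 0.12), and Cd53, a tetraspanin of blood cells with 1 of 3 myotube arrays above background, by 1.14 (SE 0.33), a call lost with normexp (-1.28) and without replicate 1 (-0.82) or 2 (-1.08). Cd82, a tetraspanin of myogenic cells, gave -3.94 (SE 0.07) in EDL against myotubes.

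Of 17 tested fusion genes, 7 were called higher and 3 lower in myotubes, beside 18.4% and 16.8% of all tested probes (5 and 5 with spike-in scaling, 4 and 2 with normexp), and Elmo1, among the 7, did not clear background on an array of either group. Cav3, the caveolin of muscle, rose by 8.41 (SE 0.13), Dysf, the membrane repair protein dysferlin, by 5.14 (SE 0.11) and Mymk, the fusion protein myomaker, by 4.79 (SE 0.48). Adam12, a protease of fusing cells, fell from a mean of 5.80 to 2.81 (SE of the difference 0.53), with 1 of 3 myotube arrays above background, a call lost with normexp (-1.75). In EDL against myotubes, Mymk was at -6.10 (SE 0.48) and Myof, or myoferlin, at -4.86 (SE 0.16).

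Ncam1 was the only one of the 10 whose lead probe was called between soleus and EDL, beside 9.44% of all tested probes called (4.96% higher and 4.48% lower). The muscles did not overlap for 6 of the 10, beside 43.1% of all tested probes. Soleus was 3.43-fold above EDL at that probe (1.78, SE 0.12, adjusted p = 2.24e-06), and within the 3 slides the difference was 1.78, 1.80 and 1.76. In all, 5 Ncam1 probes were called higher in soleus, and A_51_P380309 missed the size limit at 0.99 (SE 0.08). No Ncam1 probe was called with spike-in scaling, where the lead probe differed by 1.55, or with normexp, where it differed by 1.32. Of the other 4 called probes, each lost its call in at least 1 of the 3 fits that left out a replicate number: A_52_P684037 without replicate 3 (1.25), A_52_P291924 without 2 (1.31) or 3 (1.37), A_52_P613255 without 1 (0.95) or 3 (0.96) and A_52_P668157 without 3 (0.92). Schwann cell markers were 1 higher of 7 in soleus against EDL, with a median difference of 0.77. Their summed signal was 10800 to 11400 in soleus and 5240 to 5540 in EDL. Markers of myoblasts and satellite cells were 2 higher and 1 lower of 6, with a median difference of 0.67. The part of these cells was not tested. The second probe of Cdh13 was also higher in soleus, by 1.33 (SE 0.33, adjusted p = 0.012), while its lead probe differed by 0.15 (SE 0.17).

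Set against myoblasts, 7 genes were lower and 1 higher in EDL, and 5 were lower and 1 higher in soleus, beside 56.8% of tested probes called in EDL (31.1% higher and 25.8% lower) and 55.0% in soleus (29.3% higher and 25.7% lower). The groups did not overlap for 10 genes in EDL and 8 in soleus, beside 79.9% and 79.1% of all tested probes. Cdh13 was the higher one in each, by its lead probe. The lead probes of Cdh15, Cdh2, Cdh11, Cdon and Cd9 were lower in both muscles. They were at -3.16, -4.93, -1.40, -2.87 and -2.54 in EDL and -3.15, -4.28, -1.06, -3.12 and -1.98 in soleus. The second Cdh13 probe differed by -0.17 in EDL, not called, and by 1.16 in soleus, called. Cdh11 A_51_P506204 differed by -0.86 in EDL and -0.75 in soleus, neither called, while Cdh11 A_52_P437795 was called lower in both. The lead probes of Ncam1 and Neo1 were called lower in EDL, at -1.89 and -1.25, and not in soleus, at -0.11 and -0.87. Other probes of these genes gave other answers: 5 of the 8 Ncam1 probes were called lower in soleus, from -1.11 (A_52_P291924) to -3.45 (A_51_P380309), and the other Neo1 probes differed by 0.59 (A_52_P269003) and -0.35 (A_52_P907073) in EDL, neither called. Between the muscles the Ncam1 lead probe was itself called, and that of Neo1 was not (0.38, SE 0.10, adjusted p = 0.0144). Boc overlapped between soleus and myoblasts.

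Over the 12 arrays the lead probes of the 10 genes fell into like and unlike pairs, given here as description. Cdh15 and Cdh2 had the highest correlation (r = 0.99), then Cdh11 and Cd9 (0.98), and Cdh15 and Cdon (0.97). Ncam1 and Boc had the lowest (-0.96), then Cdh13 and Neo1 (-0.93). The points share 4 group means, so these values mostly order the groups. Among all other genes, the closest to Cdh15 were Rhod and Renbp (r = 0.999 for each), to Cdh2 Thbs1 and Dynll1, and to Cdh13 Cog4 and Casp1. Those closest to Ncam1 were Arid5a and St6galnac4, to Neo1 Gins1 and Timeless, to Cd9 Pls3 and Faim, and to Cd81 Scamp5 and Chn1. Cdh11 was closest to BC048403 and Cstb, Cdon to Txndc17 and Bmp2k, and Boc to Tor1aip1 and Rwdd1, the last pair with the lowest values of this set (0.97 and 0.96).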

How the data were processed

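The 12 arrays (3 in each of 4 groups) were read from the authors' deposited scanner files, whose processed intensity had been background-corrected with Agilent Feature Extraction 10.5.1.1, per the file headers; coordinates are mm8. The deposited table of the authors' values, a linear intensity for 41267 probes, served only as an alternative, where missing values drop arrays from a probe's fit. Control spots and outlier spots were left out, spots of a probe averaged, and log2 values scaled to the 75th percentile of each array. A probe was kept where some group had it well above background on its 3 arrays (28607 probes), and the 4 group means were fitted with limma 3.58.1 in R 4.3.3 (lmFit, eBayes, two-sided), with Benjamini-Hochberg adjustment over all 28607. A call needed an adjusted p under 0.05 and a log2 difference of at least 1. The fit was tested on simulated data. Where a probe was not above background on any array of a group, a bound was set from the lowest signal well above background. The diffSplice test of limma was added after values had been seen.

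Same-numbered samples deviated together (r 0.211 to 0.621 over 18 pairs, against -0.445 to 0.175 over 36 pairs of different numbers). Deviations from a mean of 3 arrays cancel within a group, so these ranges are not independent. Replicate 1 had negative r with the other numbers, while pairs of replicates 2 and 3 had r of 0.072 to 0.175. The slide numbers in the file headers give the pairing. All probes of the 10 genes are reported. From each pathway list the named genes are those with the largest called differences, up to 4 in myotubes against myoblasts and up to 2 in EDL against myotubes. The genes and the lists were chosen with earlier results of these data known. Alternatives were quantile, spike-in (7 probes) and normexp (offset 50) processing, other filters, blocks and arrays left out.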

Additional observations from a re-analysis of the deposited data

Results flagged for a closer look

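The difference between a muscle and myotubes was not the same in soleus and EDL at 5 probes of Ncam1 and 1 of Cdh13, by the limma test of soleus against EDL. At Ncam1 the soleus value was higher by 1.78 (A_52_P382754), 1.24 (A_52_P291924), 1.24 (A_52_P684037), 1.08 (A_52_P668157) and 1.01 (A_52_P613255) on the log2 scale. At Cdh13 it was higher by 1.33 at A_52_P504883, with 2 of 3 EDL arrays well above background, while the lead probe of Cdh13 differed by 0.15. None of the 6 calls held with spike-in scaling or with the normexp correction, and the Cdh13 call was also lost without replicate 2 (1.49) or replicate 3 (1.46).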

How the results depend on the processing

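Between myotubes and myoblasts, the count of 2 genes higher and 2 lower was also found with quantile normalization, spike-in scaling, the normexp correction and the authors' values. In soleus against EDL 0 of the 10 genes were called with spike-in scaling and 0 with normexp, and in soleus against myotube 8 were called with spike-in scaling. With normexp, all tested probes called numbered 4395 in myotube against myoblast, 6396 in EDL against myotube, 6169 in soleus against myotube, 508 in soleus against EDL, 8111 in EDL against myoblast and 6664 in soleus against myoblast. With 1 probe a gene they numbered 6682 in myotube against myoblast and 10453 in soleus against myoblast, out of fewer features tested. With spike-in scaling soleus against EDL gave 1232. Spike-in scaling also moved the split of called probes: myotube against myoblast had 5264 higher and 4804 lower against 3365 higher and 6103 lower with spike-ins, EDL against myotube had 7431 higher and 5841 lower against 3644 higher and 11961 lower with spike-ins, soleus against myotube had 6948 higher and 5729 lower against 3149 higher and 14146 lower with spike-ins, soleus against EDL had 1420 higher and 1281 lower against 472 higher and 760 lower with spike-ins, EDL against myoblast had 8883 higher and 7370 lower against 4249 higher and 14486 lower with spike-ins and soleus against myoblast had 8383 higher and 7348 lower against 3806 higher and 16265 lower with spike-ins. The cause of these shifts was not tested.

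With the replicate number, which pairs samples by slide, as a block, no count of adhesion genes called changed and no count of probes moved by over 1.5 times: 10244 in myotube against myoblast, 13567 in EDL against myotube, 12943 in soleus against myotube, 2889 in soleus against EDL, 16500 in EDL against myoblast and 15982 in soleus against myoblast. Leaving out arrays gave 4 to 4 in myotube against myoblast, 7 to 8 in EDL against myotube, 5 to 5 in soleus against myotube, 1 to 1 in soleus against EDL, 8 to 8 in EDL against myoblast and 5 to 6 in soleus against myoblast of the 10 genes called, and 9503 to 10035 in myotube against myoblast, 12540 to 13542 in EDL against myotube, 12119 to 12984 in soleus against myotube, 2239 to 2697 in soleus against EDL, 15538 to 16463 in EDL against myoblast and 15139 to 15994 in soleus against myoblast probes called.

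With spike-in scaling the sign turned, in EDL against myoblast, at Boc A_52_P319495 (-0.87), Ncam1 A_51_P347103 (-0.83) and Neo1 A_52_P269003 (-0.71), in soleus against myoblast, at Boc A_52_P319495 (-1.51), Cdh13 A_52_P504883 (-0.37), Ncam1 A_51_P347103 (-1.25), Ncam1 A_52_P37077 (-1.23) and Neo1 A_52_P269003 (-1.38), in soleus against myotube, at Boc A_52_P319495 (-0.49), Ncam1 A_51_P347103 (-1.14), Neo1 A_51_P476728 (-0.57) and Neo1 A_52_P907073 (-0.47), in soleus against EDL, at Cdh11 A_51_P506204 (-0.12), Cdh11 A_52_P437795 (-0.15), Cdh13 A_51_P114826 (-0.080) and Cdh15 A_51_P481930 (-0.22), in myotube against myoblast, at Cdh15 A_51_P481930 (-0.041), Ncam1 A_51_P347103 (-0.12) and Ncam1 A_51_P380309 (-0.13), in EDL against myotube, at Ncam1 A_51_P347103 (-0.72) and Neo1 A_51_P476728 (-0.73). With the normexp correction the sign turned, in EDL against myoblast, at Boc A_52_P319495 (-0.016), in soleus against EDL, at Boc A_52_P319495 (0.11), Cdh13 A_51_P114826 (-0.31), Cdh15 A_51_P481930 (-0.20), Cdh2 A_52_P164578 (0.81), Cdh2 A_52_P322725 (0.83), Cdon A_51_P334739 (0.69) and Ncam1 A_51_P347103 (0.25), in myotube against myoblast, at Cdh11 A_51_P506204 (-0.16), Cdh11 A_52_P437795 (-0.095), Cdh13 A_52_P504883 (-0.46), Cdh2 A_52_P322725 (-1.14), Ctnna3 A_52_P99705 (-1.15), Ncam1 A_51_P347103 (-0.15) and Nrcam A_51_P180413 (-0.22), in soleus against myotube, at Cdh13 A_52_P504883 (0.88), Cdh2 A_52_P164578 (1.21) and Cdh2 A_52_P322725 (1.09), in EDL against myotube, at Cdh2 A_52_P164578 (0.39) and Cdh2 A_52_P322725 (0.26), in soleus against myoblast, at Neo1 A_52_P269003 (-0.0064). With quantile normalization the sign turned, in soleus against myoblast, at Boc A_52_P319495 (-0.15) and Ncam1 A_52_P37077 (-0.36), in soleus against EDL, at Cd81 A_51_P223443 (0.0062) and Cdh2 A_52_P322725 (0.11), in soleus against myotube, at Ncam1 A_51_P347103 (-0.072). With the authors' values the sign turned, in soleus against myoblast, at Boc A_52_P319495 (-0.16), Ncam1 A_52_P37077 (-0.39) and Ncam1 A_52_P382754 (0.0008), in soleus against myotube, at Ncam1 A_51_P347103 (-0.091). Over the fits that left out arrays, the ranges of differences whose sign turned were in soleus against myoblast Boc A_52_P319495 (-0.13 to 0.11) and Ncam1 A_51_P347103 (-0.0026 to 0.59); in soleus against EDL Cd81 A_51_P223443 (-0.062 to 0.026), Cdh11 A_51_P506204 (-0.044 to 0.24), Cdh11 A_52_P437795 (-0.067 to 0.23), Cdh15 A_51_P481930 (-0.038 to 0.071), Cdh2 A_52_P322725 (-0.27 to 0.18), Cdon A_51_P334739 (-0.58 to 0.12) and Ncam1 A_51_P347103 (-0.61 to 0.11); in EDL against myoblast Cdh13 A_52_P504883 (-0.39 to 0.15); in soleus against myotube Cdh13 A_52_P504883 (-0.40 to 0.32) and Ncam1 A_51_P347103 (-0.24 to 0.35); in EDL against myotube Ncam1 A_51_P347103 (-0.064 to 0.64); in myotube against myoblast Ncam1 A_51_P347103 (-0.0058 to 0.52). The cause was not tested. Dim probes limit what the muscles can show, where the signal over background was lower, and 3 arrays a group limit the precision throughout.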
